A study of Mus musculus with 8 samples.

Results

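Inflammatory cytokine and NF-kB genes were followed in 2 cell populations sorted from mouse femurs, called bone cartilage stromal progenitors (BCSP) and skeletal stem cells (SSC). The members are the 38 genes of a list of cytokines, chemokines, receptors, NF-kB subunits, feedback genes and effectors. All 38 were found by symbol among the 55471 gene entries in the deposited table. The list was chosen with earlier results of these data known, so member counts set beside shares of all genes are descriptions. The series compares wild-type with Tet1 knockout (KO) pups, Tet1 being a dioxygenase that oxidises 5-methylcytosine in DNA. Its stated setting is cartilage regeneration in osteoarthritis, but the samples are from neonates of day 3 to 5. RNA of cells isolated by fluorescence-activated sorting was sequenced in bulk, with 2 libraries for each of 4 groups: wild-type SSC, KO SSC, wild-type BCSP and KO BCSP. All 8 samples, wild type included, carry the strain name B6;129S4-Tet1tm1.1Jae/J, and the labels name no treatment, promoter or Cre driver. The titles number the libraries of each group round 1 and round 2, without saying what a round was. Whether libraries came from separate animals or from pools is not stated, so p-values measure only the spread between these samples, which may be technical.

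NF-kB is a family of dimeric transcription factors that inhibitor of kB (IkB) proteins hold in the cytoplasm. Ligands such as interleukin-1 and tumour necrosis factor, or microbial products at Toll-like receptors, start a kinase cascade that degrades IkB and frees the dimers to enter the nucleus. Their targets include chemokines, cytokines and adhesion molecules, and also the genes of IkB proteins and of A20 (Tnfaip3), which switch the pathway off again. In cartilage the pathway is best known for matrix loss in arthritis, and in bone for control of osteoclasts through RANKL (Tnfsf11), its decoy receptor (Tnfrsf11b) and M-CSF (Csf1).

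The promoters of the members were compared first. RefSeq promoters (build GRCm38.p6) were matched for 29 of the 38 members. The 250 bases before each start were searched on both strands for a strict form of the kappa-B consensus. This form is GGG followed by any 2 bases and TTTCC. It was present in 8 of the 29 members (27.6%), against 1.65% of 27025 genes with a promoter. Counted by promoter, it lay in 9 of 35 member windows (25.7%) and in 1.41% of all 32851 windows of that length. The 11 matches are shown because NF-kB dimers are known to bind sequences of the kappa-B type, of which this is a strict form. Each line reads 5′ to 3′ along the gene and gives up to 10 bases on either side, the match is in capitals, and a match on the other strand reads GGAAA, any 2 bases and CCC.
Il6, 44 bases before the start, chr5:30013070-30013079: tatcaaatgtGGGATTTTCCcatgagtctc
Csf1, 154 bases before the start, chr3:107760614-107760623: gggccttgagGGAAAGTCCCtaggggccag
Cxcl1, 89 bases before the start, chr5:90891156-90891165: ccggttgcagGGAAACACCCtgtactccgg
Cxcl1, 71 bases before the start, chr5:90891174-90891183: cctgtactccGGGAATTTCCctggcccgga
Cxcl2, 97 bases before the start, chr5:90903802-90903811: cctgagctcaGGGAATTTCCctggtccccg
Cxcl2, 78 bases before the start, chr5:90903821-90903830: cctggtccccGGGCTTTTCCagacatcgtg
Nfkb2, 11 bases before the start, chr19:46304726-46304735: ggggccgaaaGGGGCTTTCCc
Nfkb2, 225 bases before the start, chr19:46305705-46305714: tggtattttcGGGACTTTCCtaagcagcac
Rel, 91 bases before the start, chr11:23771051-23771060: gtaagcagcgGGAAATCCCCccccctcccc
Nfkbia, 29 bases before the start, chr12:55492667-55492676: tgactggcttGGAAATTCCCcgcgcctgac
Tnfaip3, 12 bases before the start, chr10:19015413-19015422: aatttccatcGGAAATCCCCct
Cxcl1 and Cxcl2, neighbouring genes on chromosome 5, shared the letters GGGAATTTCC, as did Nfkbia on the other strand. The 2 Nfkb2 matches lie before different annotated starts of that gene. A looser form, GGG, any 5 bases and CC, which contains the strict one, was in 23 of 29 members (79.3%) and in 48.7% of all genes, so it separated them less. A match describes letters and is not evidence of binding.

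The promoter windows of Lif, Cxcl1 and Icam1 are printed in full because these 3 members passed the genotype test in an alternative fit with round as a term, though not in the main one, as described further on. Capitals mark the strict consensus on either strand.
Lif, chr11:4257318-4257567: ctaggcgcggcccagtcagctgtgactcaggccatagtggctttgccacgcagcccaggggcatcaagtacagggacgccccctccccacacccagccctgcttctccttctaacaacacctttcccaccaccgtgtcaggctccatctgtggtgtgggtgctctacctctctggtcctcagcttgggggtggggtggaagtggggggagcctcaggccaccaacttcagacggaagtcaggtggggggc
Cxcl1, chr5:90890995-90891244: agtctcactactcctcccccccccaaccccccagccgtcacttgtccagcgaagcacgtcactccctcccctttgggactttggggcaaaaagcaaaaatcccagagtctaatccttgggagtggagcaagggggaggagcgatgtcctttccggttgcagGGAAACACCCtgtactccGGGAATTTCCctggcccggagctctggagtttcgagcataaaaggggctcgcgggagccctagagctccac
Icam1, chr9:21015690-21015939: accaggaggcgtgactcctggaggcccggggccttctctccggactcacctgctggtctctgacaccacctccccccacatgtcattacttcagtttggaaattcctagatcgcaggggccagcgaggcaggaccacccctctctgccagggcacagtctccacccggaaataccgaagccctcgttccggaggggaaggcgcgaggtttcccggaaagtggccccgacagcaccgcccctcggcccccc
The Cxcl1 window holds 2 matches, and the windows of Lif and Icam1 hold none but do hold the looser form. Sequences that depart from these forms were not counted, so a window without a strict match is not shown to lack a kappa-B site. These are the letters of 1 annotated start per gene.

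Levels are given as CPM, counts relative to the library total scaled by its TMM factor. The libraries held 104782544 to 168004119 counts, so 1 CPM stood for 110.7 to 143.4 counts, and 35 of 38 members averaged at least 1 CPM. Il1b, Tnfsf11 and Cxcl5 did not. Tet1 itself stood at 15.6 and 19.6 CPM (wild-type SSC), 7.26 and 11.8 (KO SSC), 21.6 and 10.98 (wild-type BCSP) and 10.8 and 11.97 (KO BCSP), so the ranges overlapped in BCSP and gene-level counts checked the genotype labels only weakly. Eng, the endoglin gene that marks BCSP against SSC, was at 2.53 to 3.89 CPM in the SSC libraries and 25.7 to 50.5 in the BCSP libraries, as labelled. Blood cell genes were uneven: a list of 13 neutrophil genes summed to 203.2 CPM in wild-type SSC round 1, 16.8 to 62.5 in the other round 1 libraries and 1.75 to 12.9 in round 2. Deviations from the gene means ran with exon length most strongly in the BCSP libraries of round 2 (Spearman rho across genes -0.498 in wild type and 0.357 in KO). In the other libraries rho ran from -0.244 (wild-type SSC round 1) to 0.225 (KO SSC round 2). Calls without the 2 BCSP libraries of round 2 stand beside the results they change. In bulk RNA, fewer cells expressing a gene and less RNA per cell cannot be told apart.

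Per kilobase of exon, the most abundant members were feedback genes. Socs3, a brake on cytokine signalling through STAT proteins, averaged 314 CPM per kilobase, Nfkbia (IkB alpha) 135 and Nfkbiz (IkB zeta) 64.6. Tlr2, a Toll-like receptor for bacterial lipoproteins, the chemokine gene Cxcl1 and the subunit gene Rela followed at 40.6, 40.0 and 38.0. At the low end, Cxcl5 averaged 0.0863, Tnfsf11 0.391, Il1rl1 0.392, Traf1 0.409 and Il1b 0.415 CPM per kilobase. Socs3, Nfkbia and Nfkbiz thus stood above the classical triggers Il1b and Tnf, the latter at 1.06 CPM per kilobase. The other feedback genes ran from 0.409 (Traf1), 1.15 (Ikbke) and 2.52 (Nfkbie) up to 20.4 (Bcl3).

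**Figure D1:**
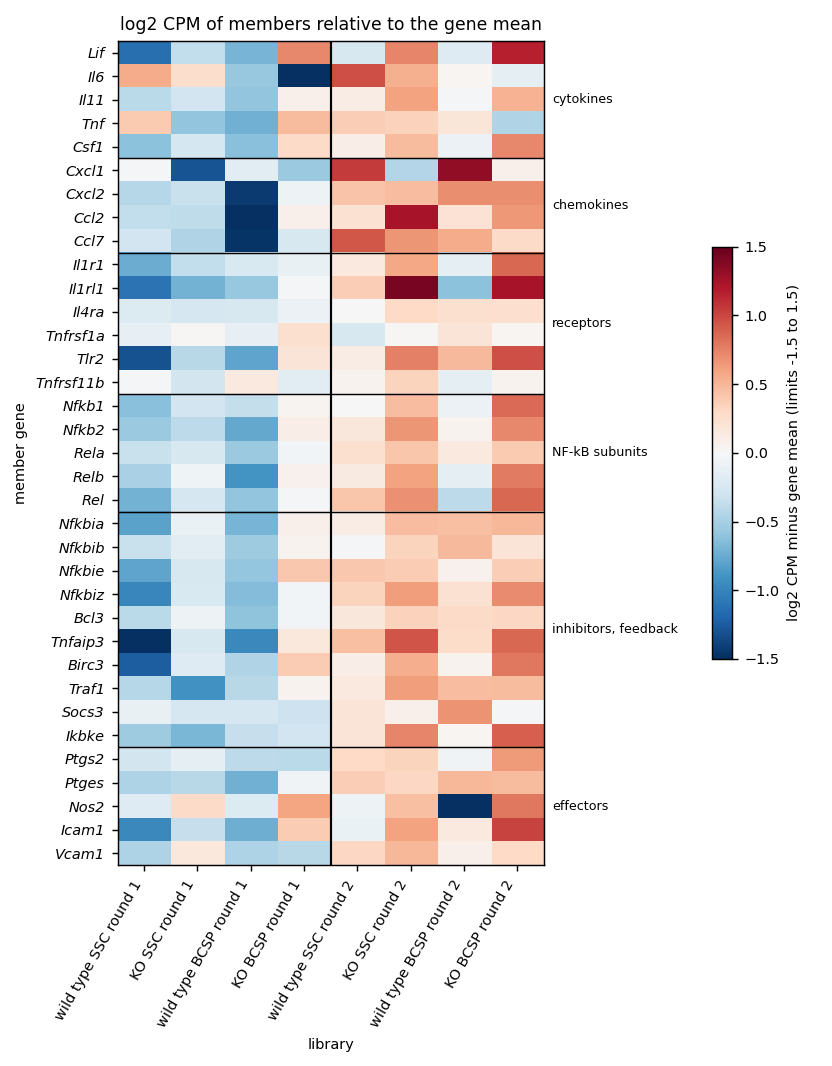
Rows are the 35 members that averaged at least 1 CPM, grouped by role, and columns are the 8 libraries ordered by round, with colour showing log2 CPM minus the gene's mean (limits -1.5 to 1.5). Most rows are red in the 4 libraries of round 2 and blue in those of round 1 except KO BCSP. That library is mixed, with 19 of all 38 members above their own mean. Within a round the KO columns are redder than the wild-type columns for many members, with Cxcl1 the other way round.

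Between genotypes no member passed the test of the design chosen for it, in SSC, in BCSP or over both. The 3 members that passed in edgeR with round added as a term were Lif, Icam1 and Cxcl1, and they passed only in alternative fits. The cytokine gene Lif and the adhesion gene Icam1 had higher means in KO, and the chemokine gene Cxcl1 a lower mean. Nos2, given further on, did not pass with round as a term. It was the 1 member of 38 with all KO libraries above all wild-type libraries. That is near the share of all tested genes with such separation, 2.13%. Lif, leukaemia inhibitory factor, is a cytokine of the interleukin-6 family (chr11:4257557-4272514, plus strand, mm10). In rounds 1 and 2 it was at 34.3 and 64.01 CPM (wild-type SSC), 58.3 and 125 (KO SSC), 46.4 and 66.2 (wild-type BCSP) and 125 and 169.6 (KO BCSP). Wild type averaged 52.7 ± 15.1 CPM and KO 119.5 ± 45.9 (SD, n = 4 each), and the groups overlapped only through KO SSC round 1, which lay below wild-type SSC and BCSP of round 2. Cxcl1 (chr5:90891241-90893115, plus strand) encodes a chemokine that draws neutrophils through the receptor CXCR2. It was at 63.2 and 133 CPM (wild-type SSC), 26.2 and 47.5 (KO SSC), 57.8 and 162 (wild-type BCSP) and 43.7 and 67.97 (KO BCSP). KO was lower in each of the 4 pairs of the same cell type and round, with means of 104 ± 51.5 CPM in wild type and 46.3 ± 17.1 in KO. Icam1 (chr9:21015985-21028817, plus strand), which encodes a cell surface ligand of leukocyte integrins, was at 44.5 and 81.2 CPM (wild-type SSC), 68.8 and 133 (KO SSC), 52.4 and 96.5 (wild-type BCSP) and 114 and 176 (KO BCSP). It was higher in KO in each of the 4 pairs, although the 2 genotypes overlapped across rounds.

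Over both cell types, with cell type and genotype in the model, no member passed the test in edgeR (quasi-likelihood, Benjamini-Hochberg adjusted over 22153 genes). Only 3 of all genes did (0.0135%), all lower in KO, while 1753 had an unadjusted p under 0.05. The log2 fold change of KO against wild type was 1.15 ± 0.27 (SE) for Lif, with edgeR adjusted p = 0.395. It was -1.19 ± 0.37 for Cxcl1 and 0.82 ± 0.27 for Icam1, with edgeR adjusted p = 0.608 and 0.609. The alternative with round added as a term assumes that libraries of the same round belong together, which the labels do not say. Over genes of at least 1 CPM, deviations from the group means correlated at 0.162 to 0.645 for 5 of the 6 pairs of groups, but at 0.059 within BCSP. Over all tested genes the 6 correlations were only 0.0234 to 0.24. With round as a term the estimates hardly moved and the errors shrank. Then 28 genes passed (0.126%), among them Lif at 1.14 ± 0.16 with edgeR adjusted p = 0.0183, Cxcl1 at -1.10 ± 0.17 with 0.0268 and Icam1 at 0.83 ± 0.13 with 0.0359. Next in order and not past the threshold were Tlr2 at 0.75 ± 0.14, Tnfaip3 at 0.86 ± 0.17 and Relb at 0.69 ± 0.14, with edgeR adjusted p of 0.0728, 0.0975 and 0.101. Which members passed depended on the tool and on single libraries, in settings added after the values were seen. DESeq2 with the same term called 13 members of 321 genes (1.45%), namely these 6 with Birc3, Csf1, Nfkb1, Nfkb2, Nfkbia, Nfkbiz and Rel. Without both BCSP libraries of round 2, edgeR with the round term, left with 2 residual degrees of freedom, called 16 members of 509 genes (2.12%). They were these 13 with Ccl2 and Il11, and Il6, lower at -0.59 (edgeR adjusted p = 0.0396). There Tlr2 was at 0.84, Tnfaip3 at 0.96 and Relb at 0.62, with edgeR adjusted p of 2.01e-10, 1.34e-13 and 3.8e-05. When each library was left out in turn, edgeR with the round term called Lif in 7 of 8 fits (not without wild-type SSC round 1, adjusted p = 0.123), Cxcl1 in 6 (not without wild-type SSC round 1 or KO SSC round 2, adjusted p up to 0.207) and Icam1 in 5 (not without those 2 or KO BCSP round 1). Without round in the model, DESeq2 called Lif and Cxcl1 (0.465% of all genes), edgeR with no filter on low counts called 8 members (0.706% of all genes), and in edgeR with the filter Lif passed without KO SSC round 1 (edgeR adjusted p = 0.0341).

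**Figure D2:**
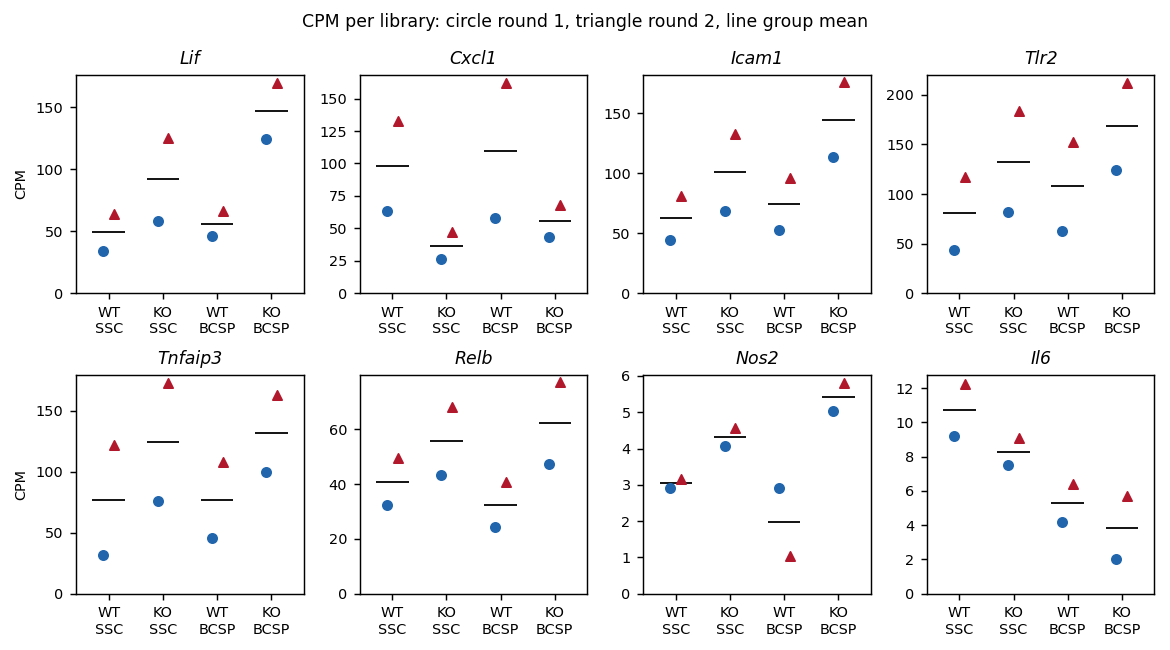
CPM per library (vertical axis, from 0) for 8 members in the 4 groups, with circles for round 1, triangles for round 2 and a line at the mean of the 2 libraries. Both KO groups sit above their wild-type groups for Lif and Icam1 and below them for Cxcl1, Nos2 is above 4 CPM in the 4 KO libraries alone, and Il6 is higher in SSC than in BCSP.

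Within SSC alone, 1 of all tested genes passed (0.00451%), 266 had an unadjusted p under 0.05, and no member passed. The member with the lowest p was Cxcl1, at -1.41 ± 0.55 (SE), followed by Lif at 0.90 ± 0.38, both with an edgeR adjusted p of 1. The KO libraries lay wholly above the wild-type libraries for Cxcl5, Nos2 and Tnfrsf1a, as for 14.5% of all tested genes, and wholly below for Cxcl1, Il6 and Tnf, as for 13.1%. Of the 38 log2 fold changes in SSC, 30 were above 0 with a median of 0.32, against 0.01 over all tested genes. That median was 0.03 without wild-type SSC round 1, -0.18 without KO SSC round 2, 0.68 without wild-type SSC round 2 and 0.63 without KO SSC round 1, so leaving out a library, which also leaves the rounds unequal between genotypes, decided its size and sign.

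Within BCSP most members had log2 fold changes above 0. Of all tested genes 1 passed (0.00451%) and no member did, while 7 members had an unadjusted p under 0.05, all higher in KO, against 3.23% of all tested genes. That count was 1 without wild-type BCSP round 1, 2 without KO BCSP round 2, 3 without both BCSP libraries of round 2, 12 without wild-type BCSP round 2, 11 without KO BCSP round 1 or KO SSC round 2, and 9 or 10 without each of the other 3. These were Lif at 1.39 ± 0.39, the nitric oxide synthase gene Nos2 at 1.46 ± 0.44, the subunit genes Relb at 0.94 ± 0.34, Rel at 0.97 ± 0.42 and Nfkb1 at 0.72 ± 0.33, Csf1 at 0.85 ± 0.32 and Icam1 at 0.96 ± 0.41. Each had edgeR adjusted p = 0.686, and Lif alone passed with no filter on low counts. In BCSP, 13 members had both KO libraries above both wild-type libraries, against 16.9% of all tested genes. None had both below, against 16.4% of all tested genes. The 13 were Lif, Il11, Csf1, Il1r1, Il1rl1, Nfkb1, Nfkb2, Relb, Rel, Nfkbie, Birc3, Nos2 and Icam1. Of the 38 log2 fold changes 32 were above 0, with a median of 0.47 against 0.01 over all tested genes. The median was 0.14 without wild-type BCSP round 1, 0.90 without wild-type BCSP round 2, 0.15 without KO BCSP round 2 and 0.60 without both BCSP libraries of round 2. Genotype differences in BCSP rose with exon length, at Spearman rho 0.401 across 12636 genes, beside 0.209 in SSC. The part of exon length in the member values was not tested.

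No member's genotype difference was shown to differ between SSC and BCSP. In the test of that difference no gene passed in edgeR (0%), 282 of all genes and 0 members had an unadjusted p under 0.05, and DESeq2 called none either. Nos2 had the lowest p among members, with an SSC minus BCSP difference in log2 fold change of -0.95 ± 0.61 (edgeR adjusted p = 1). The values were below 0 for 27 members and above 0 for 11, with a median of -0.23, but this direction rested on single libraries. Above 0 were 32 members (median 0.21) without wild-type SSC round 2, 28 (0.14) without KO SSC round 1, and 23 without wild-type BCSP round 1 (0.09) or KO BCSP round 2 (0.10). Without each of the other 4 libraries 1 to 6 members were above 0. The differences also fell with exon length, at Spearman rho -0.355 across 12636 genes, the part of which was not tested.

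Taken pair by pair, KO was above wild type in all 4 pairs of the same cell type and round for 19 members, against 10.6% of all tested genes. These 19 included the 5 NF-kB subunit genes, Nfkbia, Nfkbiz, Bcl3, Tnfaip3, Birc3, Tlr2, Il1r1 and Il1rl1, with Lif, Il11, Csf1, Icam1, Vcam1 and Nos2. KO was below wild type in all 4 pairs for Cxcl1, Il6 and Socs3, against 9.95% of all tested genes. Over both cell types 30 members were above 0 and 8 below, with a median log2 fold change of 0.40, and the median stayed between 0.23 and 0.57 when each library was left out. Unadjusted p under 0.05 was reached by 9 members higher in KO, against 3.95% of all tested genes, and by Cxcl1 lower. The 9 became 3 without KO SSC round 2 or KO BCSP round 2, 4 without wild-type BCSP round 1, 5 without both BCSP libraries of round 2, 6 without wild-type SSC round 1, 14 without KO SSC round 1 and 15 without wild-type SSC round 2. Beside Lif and Icam1, the 9 were Nos2 at 0.98 ± 0.32, Relb at 0.69 ± 0.24, Csf1 at 0.61 ± 0.22, Birc3 at 0.71 ± 0.27, Nfkb1 at 0.56 ± 0.22, Il1rl1 at 1.12 ± 0.46 and Il11 at 0.47 ± 0.22, with edgeR adjusted p from 0.608 to 0.628. The KO libraries also differed from wild type in the sum of a list of 11 pericyte and muscle genes. It was 119.8 to 140.5 CPM in KO and 92.01 to 105.3 in wild type. Pdgfrb alone was at 52.6 to 71.3 CPM in KO and 32.99 to 51.9 in wild type. Acta2, the other large part of that sum, overlapped, at 22.75 to 37.69 CPM in KO and 20.42 to 46.31 in wild type. Between genotypes over both cell types 9 of these 11 genes were above 0 and 2 below, and none passed. A list of 12 endothelial genes summed to 30.1 to 45.9 CPM in KO and 24.3 to 33.0 in wild type. Erg carried most of that sum, at 25.3 to 41.03 CPM in KO and 18.7 to 29.2 in wild type, with Pecam1, Cdh5 and Kdr each below 1 CPM in every library. Genotype differences over both cell types also rose with exon length, at Spearman rho 0.365 across 12636 genes, the members having a median exon length of 3.48 kb against 4.51 kb. The part of these in the member values was not tested.

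**Figure D3:**
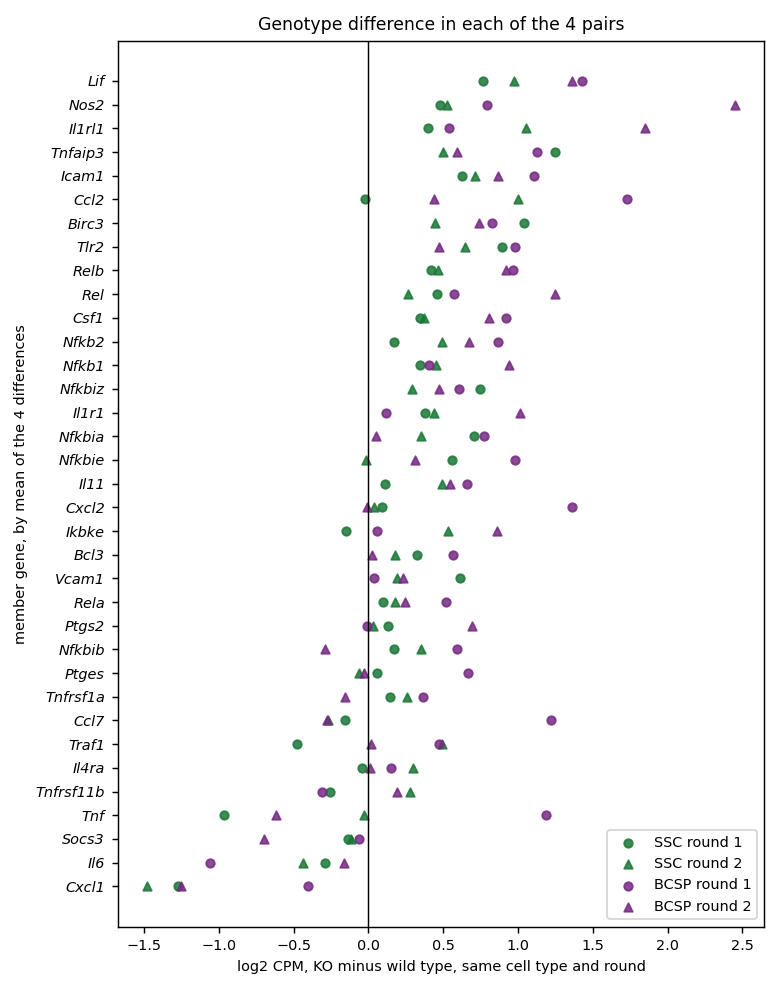
Each point is the difference in log2 CPM between KO and wild type in 1 of the 4 pairs of the same cell type and round (green SSC, purple BCSP, circles round 1, triangles round 2) for the 35 members that averaged at least 1 CPM. Lif lies between 0.765 and 1.43 in all 4 pairs and Cxcl1 between -1.48 and -0.403, while Tnf runs from -0.967 to 1.19.

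Among the other cytokines, Csf1, the growth factor of macrophages and osteoclast precursors, and Il11, another cytokine of the interleukin-6 family, were expressed at moderate levels. Csf1 was at 34.2 and 55.97 CPM (wild-type SSC), 43.5 and 72.5 (KO SSC), 33.8 and 49.03 (wild-type BCSP) and 63.9 and 85.8 (KO BCSP) in rounds 1 and 2. Il11 was at 18.0 and 25.7 CPM (wild-type SSC), 19.5 and 36.2 (KO SSC), 15.9 and 23.5 (wild-type BCSP) and 25.04 and 34.3 (KO BCSP). For both genes KO was higher in each of the 4 pairs and round 2 was higher in each group. Il6, the acute-phase cytokine interleukin-6, went by cell type: it was at 9.19 and 12.3 CPM (wild-type SSC), 7.498 and 9.06 (KO SSC), 4.21 and 6.37 (wild-type BCSP) and 2.003 and 5.696 (KO BCSP). All 4 SSC libraries exceeded all 4 BCSP libraries. Tnf stayed at 1.01 to 2.31 CPM in all libraries with no common direction. Tnfsf11, the osteoclast-inducing ligand RANKL, stayed at 0.40 to 1.36 CPM.

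Il1b, interleukin-1 beta, was nearly absent except in 1 library. Its counts in rounds 1 and 2 were 587 and 4 in wild-type SSC, 20 and 6 in KO SSC, 64 and 0 in wild-type BCSP and 106 and 22 in KO BCSP. The wild-type SSC round 1 library that held 587 was also the one in which the neutrophil genes summed to 203.2 CPM, among them S100a9 at 95.3 CPM. The log2 fold change of Il1b between rounds was -4.33 ± 1.25 (edgeR adjusted p = 0.123), and all 13 neutrophil genes were below 0 between rounds.

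The chemokine genes other than Cxcl1 did not follow it between genotypes. Cxcl2, its close relative and another neutrophil attractant, was at 7.54 and 13.7 CPM (wild-type SSC), 8.04 and 14.1 (KO SSC), 3.75 and 16.6 (wild-type BCSP) and 9.62 and 16.5 (KO BCSP). Ccl7, a monocyte attractant, was at 5.32 and 12.5 CPM (wild-type SSC), 4.77 and 10.3 (KO SSC), 2.36 and 9.62 (wild-type BCSP) and 5.54 and 7.93 (KO BCSP). Neither had a common genotype direction across the pairs, while round 2 was above round 1 in every group for both. Ccl2, the chief monocyte chemokine, ranged from 0.87 to 6.54 CPM and Cxcl5 from 0 to 0.36 CPM. Reads from Cxcl1, Cxcl2 and Cxcl5 could be shared where their sequences are alike, since the handling of such reads is not stated.

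Of the receptor genes, Tlr2 (chr3:83836272-83841767, minus strand) was the most abundant, at 43.95 and 117 CPM (wild-type SSC), 81.5 and 183 (KO SSC), 63.1 and 153 (wild-type BCSP) and 125 and 212 (KO BCSP). KO was higher than wild type in each pair and round 2 higher than round 1 in each group. Tnfrsf1a, the main receptor of tumour necrosis factor, was at 82.04 and 75.96 CPM (wild-type SSC), 90.5 and 90.7 (KO SSC), 81.98 and 102 (wild-type BCSP) and 105.4 and 91.6 (KO BCSP). Tnfrsf11b, osteoprotegerin, was at 49.4 and 52.02 CPM (wild-type SSC), 41.4 and 63.04 (KO SSC), 55.4 and 45.6 (wild-type BCSP) and 44.7 and 52.0 (KO BCSP). These last 2 varied little, with log2 fold changes of 0.00 ± 0.13 and 0.15 ± 0.15 between rounds and 0.15 ± 0.14 and -0.01 ± 0.16 between genotypes. Il1r1, the signalling receptor of interleukin-1, was at 13.5 and 24.9 CPM (wild-type SSC), 17.6 and 33.7 (KO SSC), 19.3 and 20.4 (wild-type BCSP) and 20.96 and 41.1 (KO BCSP). Il4ra, the shared receptor chain of interleukin-4 and interleukin-13, was at 8.06 and 9.33 CPM (wild-type SSC), 7.83 and 11.5 (KO SSC), 7.904 and 10.97 (wild-type BCSP) and 8.76 and 11.1 (KO BCSP). The interleukin-33 receptor gene Il1rl1 was low, at 1.03 to 5.97 CPM, with its 2 highest values in the KO libraries of round 2.

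The 5 subunit genes shared a pattern. Rela, the main transactivating subunit, was at 89.97 and 134 CPM (wild-type SSC), 96.1 and 152 (KO SSC), 77.05 and 125 (wild-type BCSP) and 111 and 149 (KO BCSP). Nfkb1, which encodes p105 and p50, was at 41.9 and 65.2 CPM (wild-type SSC), 53.1 and 89.2 (KO SSC), 50.5 and 60.7 (wild-type BCSP) and 66.8 and 116 (KO BCSP). Nfkb2, which encodes p100 and p52 of the alternative branch, was at 42.7 and 71.2 CPM (wild-type SSC), 47.99 and 100 (KO SSC), 37.1 and 65.3 (wild-type BCSP) and 67.7 and 104 (KO BCSP). The lowest value of each of these 3 lay in a wild-type round 1 library and the highest in a KO round 2 library. Relb, the usual partner of p52, was at 32.2 and 49.3 CPM (wild-type SSC), 43.1 and 68.1 (KO SSC), 24.2 and 40.7 (wild-type BCSP) and 47.1 and 77.2 (KO BCSP). Rel (c-Rel) was at 36.9 and 80.8 CPM (wild-type SSC), 50.6 and 97.2 (KO SSC), 40.05 and 45.99 (wild-type BCSP) and 59.5 and 109.6 (KO BCSP). All 5 were above 0 between genotypes in SSC and in BCSP, with median log2 fold changes of 0.38 and 0.74, and none passed.

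The feedback genes covered a wide range of levels. They are a mixed group of the list, which holds the kinase gene Ikbke and the adaptor gene Traf1 beside the inhibitors. Nfkbia, the rapidly resynthesised inhibitor, was at 118 and 223 CPM (wild-type SSC), 193 and 285 (KO SSC), 127 and 281 (wild-type BCSP) and 218 and 292 (KO BCSP). Nfkbiz, a nuclear IkB protein that helps to switch on secondary response genes such as Il6, was at 153 and 381 CPM (wild-type SSC), 257 and 466 (KO SSC), 193 and 355 (wild-type BCSP) and 293 and 494 (KO BCSP). Tnfaip3 (chr10:19000910-19015657, minus strand), the ubiquitin-editing enzyme A20, was at 31.9 and 122 CPM (wild-type SSC), 75.8 and 173 (KO SSC), 45.7 and 108 (wild-type BCSP) and 99.95 and 163 (KO BCSP). All 3 were above 0 between genotypes in each pair, and the smallest Tnfaip3 value was in wild-type SSC round 1. Birc3 (cIAP2), a ubiquitin ligase on tumour necrosis factor receptors, was at 20.8 and 52.6 CPM (wild-type SSC), 42.7 and 71.6 (KO SSC), 35.9 and 50.8 (wild-type BCSP) and 63.8 and 84.6 (KO BCSP). Bcl3, a nuclear IkB protein that acts with p50 and p52, was at 37.4 and 55.4 CPM (wild-type SSC), 46.98 and 62.6 (KO SSC), 32.4 and 60.4 (wild-type BCSP) and 48.1 and 61.4 (KO BCSP). Socs3 was at 819 and 1010 CPM (wild-type SSC), 746 and 931 (KO SSC), 743 and 1417 (wild-type BCSP) and 712 and 874 (KO BCSP). It thus ran against the other 9 feedback genes, whose log2 fold changes between genotypes were above 0 in both cell types, and stood at -0.29 ± 0.21 over both cell types (edgeR adjusted p = 0.721). Nfkbib (IkB beta) was at 17.4 and 21.6 CPM (wild-type SSC), 19.6 and 27.6 (KO SSC), 15.1 and 30.7 (wild-type BCSP) and 22.8 and 25.1 (KO BCSP). Nfkbie (IkB epsilon) was at 4.22 and 9.66 CPM (wild-type SSC), 6.22 and 9.57 (KO SSC), 4.89 and 7.63 (wild-type BCSP) and 9.67 and 9.47 (KO BCSP). Ikbke, a kinase related to the IkB kinases, was at 6.65 and 11.03 CPM (wild-type SSC), 6.01 and 15.9 (KO SSC), 7.57 and 9.87 (wild-type BCSP) and 7.89 and 17.9 (KO BCSP). These 3 showed no common genotype direction over the pairs. The adaptor gene Traf1 ranged from 1.81 to 5.27 CPM.

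Among the effectors, Ptgs2 (COX-2), the inducible enzyme of prostaglandin synthesis, was at 64.3 and 95.8 CPM (wild-type SSC), 70.3 and 97.7 (KO SSC), 59.3 and 75.0 (wild-type BCSP) and 59.0 and 121 (KO BCSP). Vcam1, an adhesion molecule for leukocytes, was at 4.54 and 7.71 CPM (wild-type SSC), 6.93 and 8.81 (KO SSC), 4.54 and 6.55 (wild-type BCSP) and 4.67 and 7.69 (KO BCSP). Both were higher in round 2 than in round 1 in every group, and Vcam1 was also higher in KO in every pair. Ptges, the prostaglandin E synthase gene downstream of Ptgs2, ranged from 2.69 to 6.31 CPM. Nos2 was low, at 1.05 to 3.17 CPM in wild type and 4.07 to 5.79 in KO, with means of 2.51 ± 0.983 and 4.87 ± 0.731 CPM (SD, n = 4 each). Its 4 KO libraries all exceeded its 4 wild-type libraries, as for 1 of 38 members and 2.13% of all tested genes, which is about the same share. It did not pass (edgeR adjusted p = 0.608). Unlike most members it did not differ by round in a common direction, at -0.16 ± 0.31.

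Between SSC and BCSP no member passed, and Il6 had SSC libraries wholly above BCSP libraries. Of all tested genes 1 passed (0.00451%), while 822 genes had an unadjusted p under 0.05. Il6 had SSC values of 7.50 to 12.3 CPM and BCSP values of 2.003 to 6.37 CPM, a log2 fold change of 1.06 ± 0.28. Its edgeR adjusted p was 0.837, and it passed only without both BCSP libraries of round 2 or with no filter on low counts. Non-overlap in that direction was found in 1.48% of all tested genes, so 1 member of 38 is little beyond that share. The median of the 38 members was -0.07, with 16 above 0.

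The comparison in which most members passed was that between rounds. In the model with cell type and genotype, 20 of the 38 members passed in edgeR and all 20 were higher in round 2. Of all tested genes 2.15% passed and 1.40% passed as higher. Since the list was chosen with earlier results of these data known, this contrast is a description. By role the 20 included 2 of 7 cytokine genes (Lif, Il11), 3 of 5 chemokine genes (Cxcl1, Cxcl2, Ccl7) and 2 of 6 receptor genes (Tlr2, Il1r1). All 5 subunit genes passed, as did 5 of 10 feedback genes (Nfkbia, Nfkbiz, Tnfaip3, Birc3, Ikbke) and 3 of 5 effector genes (Ptgs2, Ptges, Icam1). The strongest were Tlr2 at 1.16 ± 0.14, Tnfaip3 at 1.27 ± 0.17, Nfkbiz at 0.95 ± 0.14, Icam1 at 0.83 ± 0.13 and Cxcl1 at 0.998 ± 0.17, with edgeR adjusted p from 0.00164 to 0.00928. These 5 passed in each of the 8 fits that left out a library, while the count of members passing ran from 6 to 31, with 6, 7, 7 and 8 without wild-type SSC round 2, wild-type SSC round 1, KO SSC round 1 and KO SSC round 2, 12 without KO BCSP round 1 and 31 without wild-type BCSP round 2. Without both BCSP libraries of round 2, 27 passed (8.07% of all genes), the further 7 being Bcl3, Ccl2, Csf1, Il1rl1, Nfkbie and Traf1, higher, and Il1b, lower. Subunit genes were 0.80 ± 0.14 for Nfkb2, 0.81 ± 0.17 for Rel, 0.68 ± 0.14 for Relb, 0.62 ± 0.14 for Nfkb1 and 0.59 ± 0.13 for Rela. Other chemokine genes had larger errors, Ccl7 at 1.18 ± 0.24 and Cxcl2 at 1.11 ± 0.23. Differences between rounds had little relation to exon length, at Spearman rho 0.0464 across 12636 genes.

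The round difference held for members in every group. Of the 38, 36 had a log2 fold change above 0, with a median of 0.73 against 0.01 over all tested genes, and 30 were higher in round 2 in each of the 4 groups, against 11.0% of all tested genes. For 15 members all 4 libraries of round 2 exceeded all 4 of round 1, against 4.01%. Tnfaip3 was among these, at 31.9 to 99.95 CPM in round 1 and 108 to 173 in round 2. Nfkbiz ran from 153 to 293 CPM in round 1 and from 355 to 494 in round 2. Per library, 3 to 19 of the 38 members lay above their own mean in round 1 and 26 to 36 in round 2. Within each round, KO libraries held more members above the mean than the wild-type library of the same cell type, at 5 against 3 and 36 against 32 in SSC and 19 against 3 and 34 against 26 in BCSP.

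Other genes moved with the rounds as well. Immediate-early genes, which switch on within minutes of a stimulus, were all above 0 between rounds (14 of 14, 5 passed against 1.40% of all tested genes passing as higher, median 0.46). They summed to 19950 to 20920 CPM in round 1 and 26620 to 30670 CPM in round 2. Between genotypes over both cell types their median was -0.06. The macrophage and osteoclast list of 16 genes summed to 65.7 to 89.5 CPM in round 1 and 56.0 to 87.6 in round 2. Ctsk, a protease of osteoclasts, made up 35.05 to 63.9 CPM of these sums, while Lyz2 and Tyrobp, myeloid genes of the same list, passed as lower in round 2, Lyz2 at 3.05 to 12.1 CPM in round 1 and 0.857 to 1.76 in round 2, with C1qa, C1qb and C1qc at 0 to 0.11 CPM in every library. Ptprc, the pan-leukocyte gene, was at 0 to 1.09 CPM, and of 9 mast cell genes 3 were tested, Fcer1a and Ms4a2 being at 0 in all libraries. Gata2, a transcription factor gene of that list that is also used by other cells, passed as higher at 0.80 ± 0.176 (edgeR adjusted p = 0.0339), and Kit was at 0.0611 to 0.391 CPM in round 1 and 0.356 to 2.17 in round 2. Of the neutrophil genes Ltf and Mpo passed as lower, and of 8 tested erythroid genes all were below 0 and Hba-a1 passed at -2.27 ± 0.404 (edgeR adjusted p = 0.0121). Among the genes used to sort such cells Cd200 passed as lower at -0.92 ± 0.142 (edgeR adjusted p = 0.00602), with 44.9 to 67.2 CPM in round 1 and 24.2 to 37.4 in round 2. Of 6 tested lymphoid genes 5 were below 0, and the 1 above 0, Gata3, passed as higher. Igkc of that list was at 42.8 (wild-type SSC), 35.2 (wild-type BCSP), 0 (KO SSC) and 9.51 CPM (KO BCSP) in round 1. In round 2 it was at 0 to 0.0154 CPM. Of 11 pericyte and muscle genes Mcam passed as higher and Rgs5 as lower, and no endothelial or cartilage gene passed. The part of these genes and of the cells they mark in the member values was not tested.

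**Figure D4:**
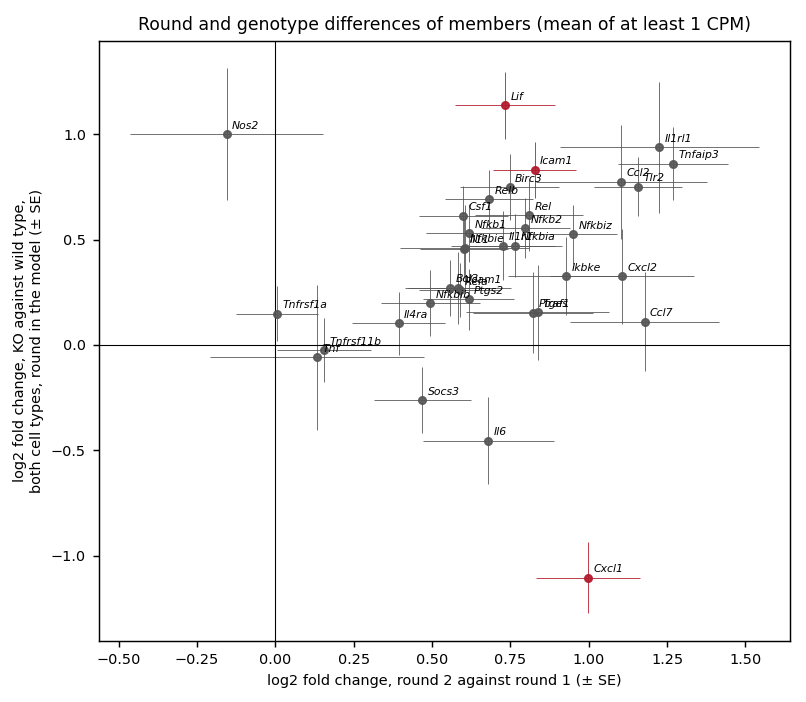
Each point is 1 of the 35 members averaging at least 1 CPM, with its log2 fold change between rounds on the horizontal axis and between genotypes, in the model with round, on the vertical axis (bars are ± SE). Members that passed the genotype test are red: Lif and Icam1 lie above 0 on both axes, Cxcl1 is at 0.998 between rounds and -1.11 between genotypes, and every point but Nos2 lies right of 0 between rounds.

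Members varied together across libraries. Over the 8 libraries the median Pearson correlation of log2 CPM among the 595 pairs of 35 members was 0.741, with 95.3% of pairs above 0. It was 0.475 after centring each member within rounds. Icam1 was the member most like Lif (r = 0.972), followed by Csf1 (0.961) and Birc3 (0.944). Cxcl1 stood apart from most, at -0.108 with Lif, and was most like Socs3 (0.829). These correlations describe 8 libraries that share groups and rounds, have no value over other genes beside them, and carry no test.

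The rest of the pathway was followed through 129 other genes in 8 lists, of which 125 were tested. Between genotypes over both cell types none passed, and the median log2 fold change was 0.15. Of the 125, 13 higher and 1 lower had an unadjusted p under 0.05, against 3.95% of all tested genes higher and 7.91% in either direction. Those with the lowest p were Cxcl12, the chemokine that holds blood stem cells in the marrow, at 0.96 ± 0.18, and Clcf1, a cytokine of the interleukin-6 family, at 0.98 ± 0.19, each with edgeR adjusted p = 0.15. Cxcl12 was at 3.43 and 3.87 CPM (wild-type SSC), 5.54 and 7.55 (KO SSC), 7.07 and 6.89 (wild-type BCSP) and 13.7 and 15.7 (KO BCSP). Clcf1 was at 8.68 and 9.54 CPM (wild-type SSC), 15.2 and 18.3 (KO SSC), 14.7 and 8.47 (wild-type BCSP) and 26.3 and 22.9 (KO BCSP). Both were higher in KO in each pair, and in the alternative fit with round Cxcl12 passed at 0.95 ± 0.16 (edgeR adjusted p = 0.0486) while Clcf1 was 0.99 ± 0.18 (0.0705).

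Adaptors and kinases that carry the signal to IkB, such as Myd88, Traf6 and the IkB kinases, gave no calls. Of 20 such genes none passed in edgeR in any of the 6 comparisons, and their median log2 fold changes were 0.04 between genotypes over both cell types and -0.01 between rounds. Ikbkg, the regulatory subunit of the IkB kinase complex, and Pla2g4a, which releases the precursor of prostaglandins, were the genes of these lists at 1 CPM or more with the lowest p for a difference between the cell types' genotype effects, at 0.55 ± 0.37 and 0.89 ± 0.58 (edgeR adjusted p = 1 for both). Between rounds 14 of the 125 genes passed as higher and Mmp13, a collagenase of hypertrophic cartilage, as lower at -1.05 ± 0.18 (edgeR adjusted p = 0.0111). Of all 22153 tested genes 311 passed as higher (1.40%) and 165 as lower. The 14 included the cytokine gene Csf3 at 1.46 ± 0.25, the receptor gene Osmr at 0.90 ± 0.18, the kinase gene Jak1 at 0.71 ± 0.14 and the transcription factor gene Cebpb at 1.03 ± 0.17. The others were Pim1, Tnfaip2, Ier3, Plau, Osgin1 and the immediate-early genes Jun, Fosb, Egr3, Atf3 and Myc. The median of all 125 was 0.28 between rounds, below the 0.73 of the 38 members, a comparison of 2 chosen lists that was not tested.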

How the data were processed

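The authors deposited raw counts per gene in a single table, with a column for each of the 8 libraries, from paired reads of 150 bases per the labels. STAR, featureCounts, DESeq2 and build mm10 are named in the submitters' processing notes without versions, while the table's name points to htseq, so the counter is not settled. The annotation release and strand of counting are not given in the sources used here, so antisense or overlapping genes cannot be told apart. Column names with SCC were read as SSC and BCP as BCSP, since the titles leave 1 such sample each.

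The deposited counts were tested with edgeR 4.0.16 (R 4.3.3, limma 3.58.1, and the data.table package at 1.17.8): TMM factors, filterByExpr (minimum count 10, minimum total 15; 22153 genes, with all 38 members and 99.9854% of counts), robust quasi-likelihood fits to all 8 libraries and Benjamini-Hochberg adjustment over all tested genes, with a threshold of 0.05. One mean per group gave the comparisons within SSC and BCSP and their difference (4 residual degrees of freedom). Additive models gave genotype, cell type and round (5, or 4 with round as a term); they treat SSC and BCSP libraries as independent samples. Log CPM used a prior count of 2. Within groups, chi-square per degree of freedom of the 2 libraries was 145 to 355, so neither repeats the other, and their spread rather than depth limits the precision.

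The titles give the same round numbers in all groups, and round was read as a run that the groups share, which the labels do not define. Deviations from the group means correlated between groups at 0.645 (KO SSC with KO BCSP), 0.615 (wild-type SSC with KO BCSP), 0.559 (SSC), 0.273 (wild type), 0.162 (KO SSC with wild-type BCSP) and 0.059 (BCSP) over genes of at least 1 CPM. In the same order they were 0.24, 0.217, 0.215, 0.109, 0.0474 and 0.0234 over all tested genes. BCSP lay under 0.1 in both sets of genes, and KO SSC with wild-type BCSP did so over all tested genes. These correlations thus do not show that all groups pair by round, nor that they do not, and the fit without round was kept as the main one. The BCSP libraries of round 2 had exon-length trends of opposite sign (Spearman rho -0.498 in wild type and 0.357 in KO). The part of these trends in the BCSP correlation was not tested.

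Genes were placed on GENCODE M21, which matched 55230 of 55471 entries, 54573 of them with the version. Promoters came from RefSeq (GRCm38.p6); 33 of 35 member windows were checked to continue into a GENCODE transcript. Of members averaging at least 5 CPM, values per library are given for those with an unadjusted p under 0.05 in any of 6 comparisons or among the 3 most abundant of their role. Test values are given for pairs of member and comparison under that p, and from the other pathway lists for the 2 genes of at least 1 CPM with the lowest p in each genotype comparison; any that passed are named. Alternatives were other size factors, no filter, DESeq2 1.42.0, limma-voom, round as a term and left-out libraries. The members and lists were chosen with earlier results of these data known. The fits were tested on simulated data.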

Additional observations from a re-analysis of the deposited data

How the results depend on the processing

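Members called between genotypes over both cell types were 0 in the reported model, 8 with no filter on low counts (Lif, Icam1, Relb, Rel, Tlr2, Tnfaip3 and Birc3 higher, Cxcl1 lower), 2 with DESeq2 (Lif, Cxcl1), 3 with the replicate block of round, and 0 to 1 with a library left out. All genes called were 3, against 234 with no filter, 103 with DESeq2, 1 with limma-voom, 28 with the replicate block, 1 to 12 with a library left out and 11 without both BCSP libraries of round 2. Combined with the replicate block, settings chosen after seeing the data gave 13 members of 321 genes with DESeq2, 3 of 23 with limma-voom, 16 of 509 without both BCSP libraries of round 2, and, without round 1 and then round 2 of each group, 0 members of 4 genes and 5 of 44 (wild-type SSC), 6 of 212 and 17 of 541 (wild-type BCSP), 3 of 63 and 1 of 17 (KO SSC), and 2 of 21 and 5 of 43 (KO BCSP). In SSC no setting called a member; all genes called were 1, against 4 with no filter, 9 with DESeq2, 2 with the replicate block and 1 to 4 with a library left out, and the member median ran from -0.18 to 0.68. In BCSP, 1 member (Lif) was called with no filter and 0 otherwise; all genes were 1, against 38 with no filter, 20 with DESeq2, 3 with the replicate block and 1 to 2 with a library left out.

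For the difference between cell types in the genotype effect, no setting called a member, the replicate block called 2 genes, and the member median ran from -0.82 to 0.21 with a library left out. Between SSC and BCSP, Il6 was the 1 member called with no filter and without both BCSP libraries of round 2; all genes were 1, against 66 with no filter, 39 with DESeq2, 2 with the replicate block, 1 to 3 with a library left out and 36 without both. Between rounds, members called were 20, 27 with no filter, 28 with DESeq2, 27 without both BCSP libraries of round 2 and 6 to 31 with a library left out, and all genes were 476, against 1062, 1128, 1932 and 208 to 4072. The round comparison has no block alternative, since round is the term tested. The 4072 genes and 31 members came without wild-type BCSP round 2, and the 208 genes without wild-type SSC round 1. The cause of these differences was not tested. No alternative reversed a called value, and the replicate block changed no member's call other than those of Lif, Cxcl1 and Icam1 over both cell types. With 2 libraries a group, a member that did not pass is not shown to be unchanged.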

Other observations

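Cytokines of the interleukin-6 family signal through JAK kinases and STAT proteins, and a list of 14 genes drawn up for that pathway, all tested, gave the following values. Between rounds 13 of 14 were above 0, with a median log2 fold change of 0.44. In edgeR 4 passed as higher (Cebpb, Pim1, Jak1 and Osgin1), against 1.40% of all tested genes. Of these, Osgin1 is known as an oxidative stress response gene and not as a part of JAK-STAT signalling. Between genotypes over both cell types none passed, 9 of 14 were above 0 and the median was 0.23. The STAT motif TTCNNNGAA was found on either strand within 250 bases before the start of 4 of 29 members (13.8%), namely Socs3, Icam1, Nfkb2 and Tnfrsf1a, and of 8.13% of all genes with a RefSeq promoter.

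The other receptor genes (20 tested) held 1 that passed between rounds (Osmr, against 2.15% of all tested genes), 16 above 0 between genotypes over both cell types and none that passed there. The 10 other prostaglandin genes had medians of 0.10 between genotypes and -0.01 between rounds, and none passed in either comparison, while both prostaglandin genes among the members, Ptgs2 and Ptges, passed between rounds.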
